A study of Macaca fascicularis with 11 samples.

Results

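The regions described here are stretches of the Cynomolgus macaque genome in which many listed CpG cytosines lie close together and carry little methylation in skeletal muscle. Listed cytosines of both strands were sorted by position, and a gap of more than 1000 bp started a new run. A run with 10 or more cytosines is called dense. A dense run whose mean methylation over all its cytosines and all 11 animals was below 10% is called an unmethylated dense run. On chromosomes 1 to 20 without chromosomes 10 and 11, 486 of 788 dense runs (61.7%) met this rule. They held 6576 of the 42613 cytosines listed on these 18 chromosomes (15.4%), in 9619 runs of any size, and the whole table held 61399 cytosines in 13633 runs. The other dense runs were 151 highly methylated ones, with a mean above 70%, and 151 partly methylated ones between these bounds.

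The series holds reduced representation bisulfite sequencing (RRBS) of 11 muscle biopsies, 1 from each of 11 adult male animals, which form 1 group without treatment groups or other tissues. Per the methods the biopsies were punched from the quadriceps under ketamine anaesthesia, and no strain, age or pooling is given in the sources used here. In RRBS, DNA is cut with a restriction enzyme, converted with bisulfite and sequenced, and the share of reads that still show a cytosine is the methylation level. The methods name MspI alone and the EpiTect conversion kit, while the sample labels name MspI followed by TaqαI and a Zymo Research kit, so the enzymes behind these fragments cannot be told apart. The table columns carry animal numbers that the labels do not hold, and they were used as 11 animals of 1 group. Read counts were not used here, so the depth behind a level is unknown beyond the stated minimum coverage of 10. A biopsy holds several cell types, and full methylation in a few cells cannot be told apart from a low level in all.

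CpG islands are stretches of DNA that are rich in CpG dinucleotides and mostly free of methylation, and many lie at the starts of genes. Elsewhere in mammalian genomes most CpGs are methylated, and CpGs have become rare because a methylated cytosine readily mutates to thymine. Enzymes such as MspI cut at sites that contain a CpG, so RRBS reads come largely from CpG-rich sequence. Whether the runs described here are CpG islands was not tested, since the sequence and gene annotation of the authors' genome build (Yan et al.) were not used here. Density below means the density of listed cytosines, which depends on the fragments sequenced, and no gene is named. Coordinates are those of the authors' build.

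The libraries of 4 animals stood apart from the rest. Animals 2606, 2646, 5296 and 5272 had mean levels of 5.62%, 5.00%, 4.96% and 4.70% in the unmethylated dense runs, whereas the other 7 animals lay between 3.07% and 3.29%. A level of exactly 0 was listed for 27.4% to 29.5% of the run cytosines in those 4 animals and for 47.1% to 62.0% in the others. The cause of this difference was not tested. Each test is therefore also given without these 4 animals.

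Dense runs fell mostly at the low end of the methylation scale. From 10% to 90% lay 249 of the 788 (31.6%), while 31 lay from 90% to 95% and 22 above 95%. Of the 486 unmethylated runs, 404 had a mean below 5% and 82 a mean from 5% to 10%. Only 21 of the 788 dense runs (2.66%) lay between 25% and 45%, and 32 lay between 10% and 15%. The median of the unmethylated runs was 3.18%, with quartiles of 2.67% and 4.18%, and their lowest mean was 1.69%. These levels chose the runs and are given as a description. The bound of 10% did not fall in the emptiest stretch of the distribution, with 82 runs in the 5 points below it and 32 in the 5 points above. The 3 unmethylated runs closest to it were chr7:140409083-140410072 at 9.94%, chr16:17904760-17905378 at 9.64% and chr7:99349419-99350343 at 9.57%. The 3 partly methylated runs just above it were chr1:48557961-48558250 at 10.01%, chr6:176528270-176528711 at 10.07% and chr19:56222332-56222420 at 10.08%. The run means of single animals overlapped widely across the bound, from 4.09% to 14.3% in the chromosome 7 run at 9.94% and from 7.79% to 12.2% in the chromosome 1 run at 10.01%.

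**Figure D1:**
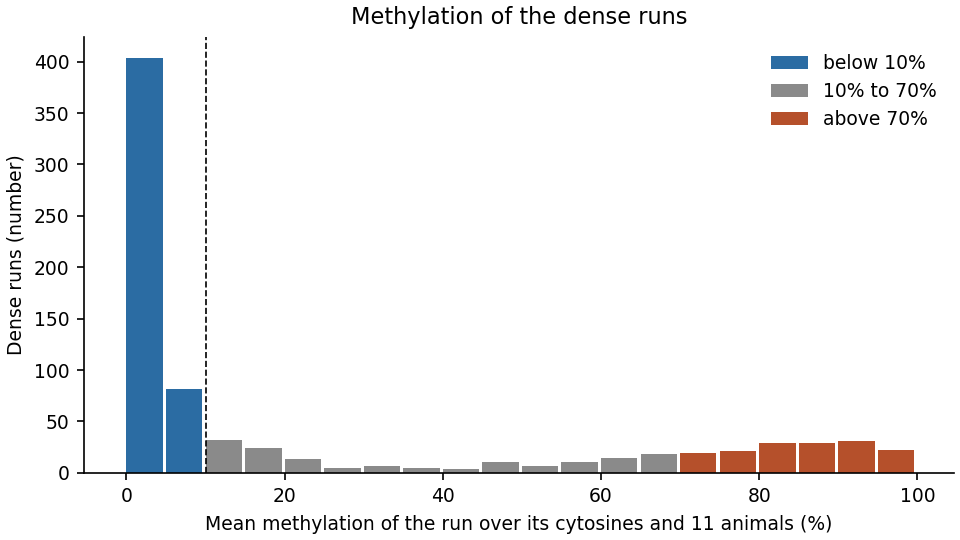
Number of dense runs (vertical axis) by mean methylation over cytosines and 11 animals in steps of 5 percentage points (horizontal axis, %); colours mark the runs below 10%, from 10% to 70% and above 70%, and the dashed line marks 10%. The first bar holds 404 runs, and the 4 bars from 25% to 45% hold 21 together.

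Most unmethylated dense runs were short. Their median span was 165.5 bp, from 17 to 3415 bp, and 178 of them (36.6%) spanned 100 bp or less. The median run held 12 cytosines, 120 runs held exactly 10, 44 held 20 or more, and the largest held 35. All 486 together covered 167 kb and 6019 different CpGs. The median was 8.00 cytosines per 100 bp, against 12.1 in the highly methylated runs, whose median span was 100 bp, and 6.76 in the partly methylated runs. Counted as different CpGs over the summed span, the order changed, with 36.0 CpGs per kb in the unmethylated, 33.7 in the highly methylated and 31.1 in the partly methylated runs. The word dense thus describes the count of listed cytosines. These are descriptions of run shape without a test.

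The unmethylated runs were more often listed on 1 strand only. This was so for 189 of them (38.9%), against 17 of the 151 highly methylated runs (11.3%) and 23 of the 151 partly methylated runs (15.2%). Of the unmethylated run cytosines, 48.4% lay on the plus strand. The strands of the unmethylated runs were thus listed about equally often, while single runs often had 1 strand alone.

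The share of runs below 10% differed with run size. It was 39.2% of 1632 single cytosines, 37.8% of 4611 runs of 2 to 4 cytosines and 52.9% of 2588 runs of 5 to 9. Among dense runs it was 62.5% of 707 runs with 10 to 19 cytosines and 54.3% of 81 runs with 20 or more. The share thus was higher in the dense runs than in runs under 5 cytosines, but did not go on rising at the largest sizes. By chromosome, the unmethylated share of dense runs went from 47.6% on chromosome 8 (20 of 42) to 78.9% on chromosome 6 (30 of 38). Chromosome 16 held the most unmethylated runs, 48 of its 71 dense runs, followed by chromosome 1 with 41 of 73 and chromosome 19 with 40 of 71. The mean of the unmethylated runs went from 3.10% on chromosome 8 to 4.89% on chromosome 13.

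The low level was found again in animals that had not chosen the runs. When the runs were chosen on 10 animals, the mean of the left-out animal was below 10% in 96.5% ± 1.60 (SD, n = 11 animals) of them. The lowest share was that of animal 2606, with 455 of 490 runs (92.9%), and the highest that of animal 2673, with 477 of 486 (98.1%). The left-out animal's mean over these runs was 3.85% ± 1.00 (SD, n = 11), and that of the 10 choosing animals 3.80% ± 0.0890. With the bound at 5% the left-out share was 86.6% ± 13.7 (SD, n = 11), a much wider spread between animals. Without the 4 higher animals 496 runs met the rule, and the left-out share was 96.8% ± 0.567 (SD, n = 7).

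Over all 11 animals the mean of the unmethylated run cytosines was 3.84% ± 0.997 (SD, n = 11). With ratios of exactly 0 and 1 left out it was 7.16% ± 0.639, and with the bound at 20% it was 4.99% ± 1.04. The same 4 animals were the highest on odd-numbered and on even-numbered chromosomes. On odd-numbered chromosomes the 4 higher animals had 5.60%, 5.13%, 5.06% and 4.75%, and the other 7 between 3.16% and 3.47%. On even-numbered chromosomes the same 4 animals had 5.63%, 4.88%, 4.86% and 4.65%, and the other 7 between 2.86% and 3.21%. The highest animal of a run was 1 of these 4 in 415 of 486 runs (85.4%), most often animal 2606, with 173 runs. The lowest animal was most often 2654, with 79 runs, and 1 of the 4 in no more than 8 runs each. The 4 animals were picked by their means over these same runs, so the values by chromosome and these counts are descriptions.

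The same 4 animals did not stand apart in the highly methylated dense runs. There animal means lay between 84.4% and 86.4%, with 85.8%, 85.9%, 85.8% and 85.6% in animals 2606, 2646, 5296 and 5272. Animals 2595 and 2666 were the lowest and the highest there, while in the unmethylated runs both lay within the 7 lower animals. The higher level of the 4 animals was not confined to the unmethylated runs. In the partly methylated runs, with a mean of 35.2% over animals, animals 5296, 2646 and 2606 had 38.3%, 36.8% and 36.3%, below only animal 2595 at 38.4%, while animal 5272 had 34.5%. At listed cytosines outside dense runs, 20 to 100 kb from the nearest unmethylated run, animals 2606, 2646, 5296 and 5272 were the highest with 35.9%, 35.8%, 35.5% and 35.3%, and the next was animal 2666 with 35.2%. Near the other dense runs they were also the highest at this distance, with 42.7%, 42.6%, 42.8% and 42.2%. Closer by this did not hold. At 1 to 2 kb from unmethylated runs animal 5272 had 13.2%, below animals 5295 (13.6%), 2666 (13.5%) and 2624 (13.4%). At 1 to 2 kb from the other dense runs animal 2606 was the lowest, with 61.2%.

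**Figure D2:**
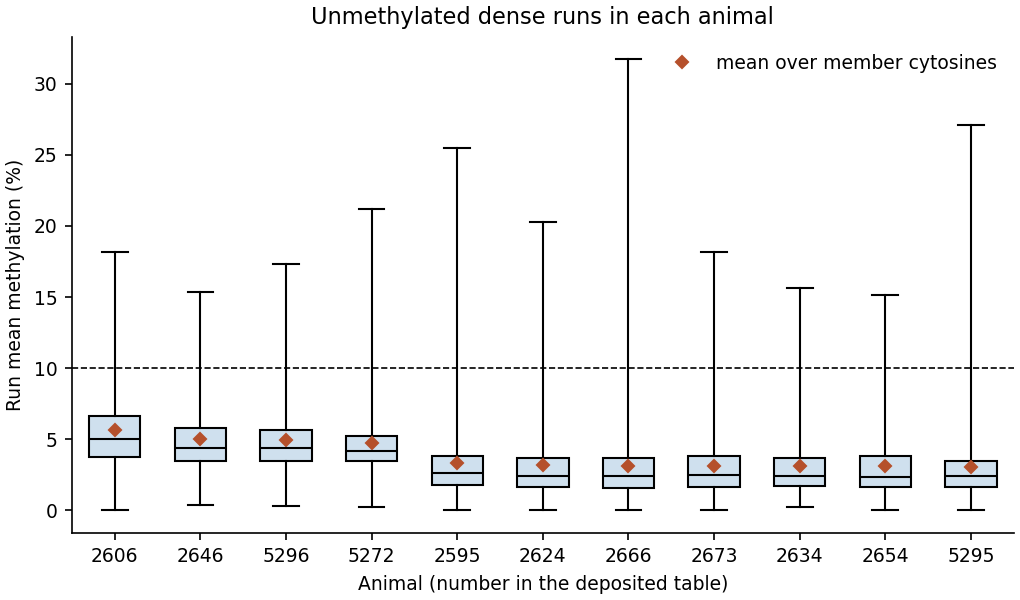
Run mean methylation (vertical axis, %) of the 486 unmethylated dense runs in each of the 11 animals (horizontal axis); boxes span the quartiles with the median as a line, whiskers reach the lowest and highest run, diamonds give the mean over all run cytosines, and the dashed line marks 10%. The 4 boxes at the left, animals 2606 to 5272, have medians from 4.20% to 4.99%, above the 2.37% to 2.64% of the other animals.

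The spread of the run means over animals is given next. The rule used the same 11 animals, so mostly low values in single animals follow from it, and the counts are descriptions. All 11 run means were below 10% in 422 of the 486 runs (86.8%). In 22 runs 1 animal reached 10% or more, in 23 runs 2 or 3 animals did, and in 19 runs 4 or more did. Only 3 runs had an animal at 20% or more. The median range between the lowest and highest animal was 4.90 percentage points, against 8.78 in the highly methylated and 15.7 in the partly methylated runs. It exceeded 10 points in 34 unmethylated runs and 15 points in 7. Since a mean near 0 leaves little room for a range, these ranges are descriptions only.

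The 3 runs with an animal above 20% differed in which animals were raised. The widest range was that of chr9:45421854-45422151, which holds 18 cytosines over 298 bp, 11 of them on the plus strand. Animal 2666 had a run mean of 31.7%, animal 2595 of 25.5% and animal 2624 of 20.2%, and the other 8 animals lay between 1.67% and 4.93%. None of these 3 animals is among the 4 that stood higher over all runs. At each of the 18 cytosines all 3 animals were above the other 8: their lowest value at any cytosine was 12.5%, and the highest of the others was 11.1%. The raised level was present on both strands, with plus-strand means of 31.0%, 23.9% and 19.8% in animals 2666, 2595 and 2624 and higher minus-strand means in all 3 (32.8% and 28.0% in animals 2666 and 2595). The run thus split the animals into 3 with partial methylation along its whole length and 8 with little. The cause was not tested.

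The next widest run was chr9:623448-623591, with 15 cytosines over 144 bp. Animal 5295 had a run mean of 27.1% and animal 2606 of 15.6%, and the other 9 animals lay between 4.23% and 9.47%. Here too the raised animal was raised on both strands, with a plus-strand mean of 31.3% and a minus-strand mean of 23.5% in animal 5295. The separation was less complete, since the lowest value of animal 5295 at a single cytosine was 5.13%, with a median of 31.3%.

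In chr13:137303513-137304012, with 12 cytosines over 500 bp, the raised level differed between strands. Animal 5272 had a run mean of 21.2% and animal 2646 of 14.5%, and the other 9 lay between 1.41% and 7.74%. At the 4 CpGs listed on both strands, the plus-strand mean was 42.0% in animal 5272 and the minus-strand mean 15.1%, and in animal 2646 they were 30.5% and 8.22%. In animal 2666 they were 13.3% and 5.25%. The raised level of this run thus lay more on the plus strand at these CpGs. In the run with the widest range, at its 4 CpGs listed on both strands, the plus-strand and minus-strand means were 37.1% and 17.2% in animal 2666, 30.3% and 28.1% in animal 2595, and 16.7% and 22.9% in animal 2624, so the strands differed there too, in either direction.

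**Figure D3:**
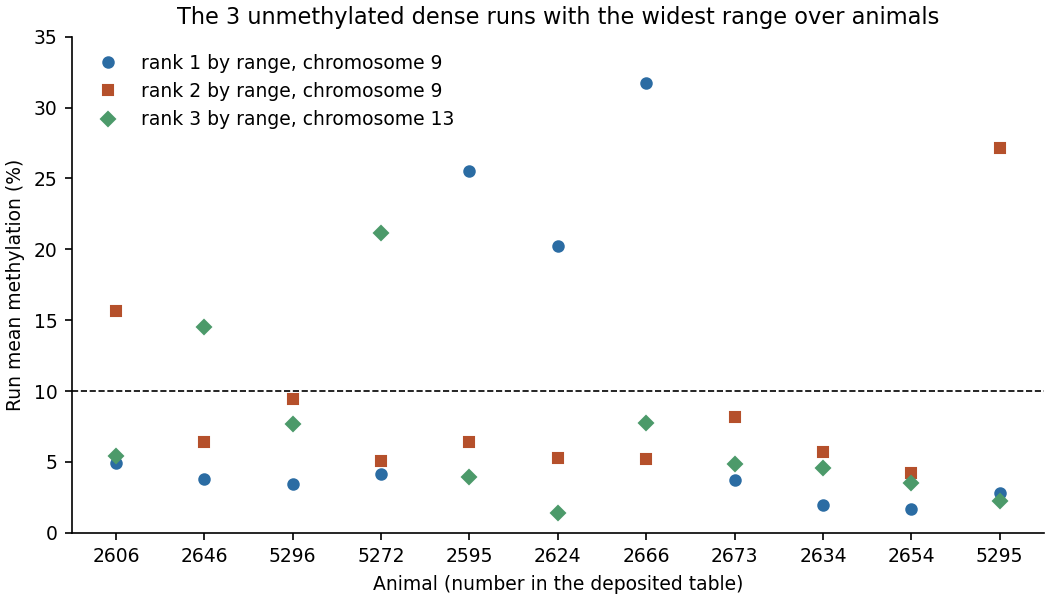
Run mean methylation (vertical axis, %) in each of the 11 animals (horizontal axis) for the 3 unmethylated dense runs with the widest range over animals; each symbol is 1 run and the dashed line marks 10%. In the run of rank 1, animals 2595, 2624 and 2666 lie between 20.2% and 31.7% and the others below 5%; in the runs of rank 2 and 3, animals 5295 and 5272 are the highest.

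A similar pattern was seen in a pair of runs just outside the rule, which were looked up after their values were seen. The run chr1:142843032-142843588 has 49 cytosines and a mean of 10.3%, and chr1:142849351-142849517, which starts 5763 bp after its end, has 45 cytosines and a mean of 11.0%. In the first, animal 5295 had 31.7%, animal 2606 27.1% and animal 2673 15.2%, and the other 8 lay between 2.81% and 7.51%. In the second, the same animals had 34.7%, 28.8% and 18.1%, and the other 8 lay between 3.17% and 7.31%. The same 3 animals thus were the highest in both runs and in the same order. Without animal 2606, these 2 and 2 other runs fall below 10%, which adds 118 cytosines to the unmethylated dense runs.

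The 3 runs with the most cytosines, with a tie at the third place taken by chromosome order, are given here with the run that tied. In chr20:147797-148861, with 35 cytosines, run means went from 1.94% (animal 2673) to 5.01% (animal 5272), with a median of 2.49%. In chr2:75583064-75583220, 33 cytosines lay within 157 bp, and run means went from 2.63% to 7.91% with a median of 4.67%. In chr4:1515369-1515984, also with 33 cytosines, they went from 2.52% to 9.83% with a median of 4.43%. All 11 values of these 3 runs lay below 10%. The tied run, chr13:101262357-101263198, also with 33 cytosines, had a mean of 8.24% and was not low in every animal. Its run means went from 3.41% to 14.3% with a median of 6.78%, and animals 2646, 2606, 5296 and 2654 were at 14.3%, 13.7%, 11.5% and 10.7%.

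The 3 runs with the lowest means held 10, 10 and 16 cytosines. The run chr18:73026998-73027076, with 10 cytosines that all lie on the minus strand, had a mean of 1.69%, from 0 in animals 2595 and 2606 to 4.04% in animal 2646. Animal 2606, the highest animal over all runs, was thus at 0 in the run with the lowest mean. In chr1:147096053-147096128, with 10 cytosines that all lie on the plus strand, the mean was 1.71%, from 0.667% to 3.76%. In chr8:70056110-70056786, with 16 cytosines, it was 1.81%, from 0 in animal 5295 to 2.68% in animal 2624. No more than 6 of the 486 runs were listed at 0 throughout in any 1 animal.

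The levels of single cytosines within the runs varied from 0 to 68.9%. The rule chose the runs by the mean of these same values, so mostly low cytosines follow from it, and the counts are descriptions. The median cytosine had a mean of 2.91% over the animals, 9 in 10 were at or below 6.90%, and the 99th percentile was 18.7%. In 369 of the 486 runs (75.9%) every cytosine had a mean below 10%. Above 10% were 282 of the 6576 cytosines (4.29%), above 30% were 23, in 18 runs, and above 50% were 5. Of these 23, 8 (34.8%) were among the first or last 2 cytosines of a run, as were 29.6% of all run cytosines. A level of 0 in all 11 animals was listed for 23 cytosines, and 250 were at 0 in no animal.

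A few cytosines were highly methylated inside an otherwise low run. The minus-strand cytosine at chr17:7157211 had a mean of 68.9% ± 23.6 (SD, n = 11), from 18.8% in animal 2666 to 91.6% in animal 2595, while the other 13 cytosines of its run averaged 3.57%. The nearest listed cytosine, 6 bp away, had 17.9%. The plus-strand cytosine at chr20:108269 had 66.0% ± 17.2 (SD, n = 11), from 22.7% in animal 5272 to 85.1% in animal 2673, and the rest of its run 3.49%. The plus-strand cytosine at chr13:57375545, the last of its run, had 58.6% ± 9.25 (SD, n = 11), from 43.5% to 75.3%, and the rest of its run 2.66%. For none of the 3 was the cytosine on the other strand listed. These cytosines had at least 18.8% in all 11 animals, whereas the runs of widest range were raised in few animals.

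Within the unmethylated runs the outer cytosines had a higher level than the inner ones. The rule averaged these same ratios to choose the runs, so no trait of the runs is read from the test. The first 2 and last 2 cytosines of a run (1944 cytosines) averaged 4.24% ± 1.08 (SD, n = 11 animals), and the 4632 between them 3.68% ± 0.965. The difference of 0.563 ± 0.179 percentage points (SD) was present in 11 of 11 animals, from 0.255 to 0.802. In the two-sided permutation test over animals, with all 2048 sign changes, p = 0.000977, the smallest that 11 animals allow, and the Benjamini-Hochberg adjusted p was 0.00195 over 6 tests. These p-values measure how stable a difference was across 11 animals at the same listed cytosines, not across the genome. Without the 4 higher animals the difference was 0.470 percentage points (adjusted p = 0.0234, permutation test) with runs chosen anew. It was 0.489 (adjusted p = 0.03125, permutation test) with the runs chosen on all 11 animals. It was 1.13 points with 1 cytosine at each end and 0.286 with 3, past the threshold with both. The size of the difference rose with the bound that chose the runs. It was 0.439 points with the bound at a mean ratio of 0.05 and 0.834 points at 0.20, against 0.563 with the main rule. The difference thus cannot be separated from the choice of the runs.

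The higher level was that of the outermost cytosine. It averaged 4.81% ± 1.24 (SD, n = 11), against 3.67%, 3.53%, 3.63% and 3.66% at the places 2 to 5 from an end. Runs of all spans had higher ends, taken as the 2 cytosines at each end. These were above the middle by 0.830 percentage points in runs of 100 bp or less. The difference was 0.329 in runs of over 100 and up to 500 bp and 0.776 in longer runs, in 11 of 11 animals each. The steps by span were chosen after seeing the data. The rule averaged these same ratios, so these values are descriptions and no trait of the runs is read from them.

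Single runs seldom showed the difference in every animal. The ends were above the middle in all 11 animals in 19 of the 486 unmethylated runs (3.91%), against 11.0% of all 788 dense runs, and below it in 9 (1.85%), against 8.76% of all dense runs. The 788 dense runs include the 486, and runs chosen for levels near 0 leave little room for a difference, so nothing is read from the lower shares. By their means over animals, 323 of the 486 runs had higher ends, and the median difference was 0.483 percentage points, with quartiles of -0.290 and 1.34. Over all 788 dense runs 483 had higher ends, with a median of 0.467 percentage points, so these values lay close to the background.

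In the highly methylated dense runs the ends were compared in the same way. Their ends averaged 85.56% and their middle 85.55%, a difference of 0.00463 ± 0.336 percentage points (SD, n = 11) that was positive in 6 of 11 animals (adjusted p = 0.958, permutation test). This mean joins a higher outermost cytosine, at 87.0%, and a lower one next to it, at 84.1%. The places 3 to 5 from an end had 85.3%, 85.6% and 86.9%, so place 5 was about as high as the outermost. With 1 cytosine at each end the difference in these runs was 1.70 percentage points (adjusted p = 0.00117, permutation test), against 1.13 in the unmethylated runs. The shift of ends towards intermediate levels was also set against that of the highly methylated runs. The difference was 0.568 ± 0.402 percentage points, positive in 10 of 11 animals (adjusted p = 0.00439, permutation test). It depended on how the cytosines were counted. With 1 cytosine at each end it was 2.83 percentage points, with chromosomes 10 and 11 included 1.77, and with runs split at 500 bp 1.26, past the threshold with each. With both strands of a CpG counted once it was reversed, at -1.42 percentage points (adjusted p = 0.000977), and it missed the threshold with 3 cytosines at each end (0.121, adjusted p = 0.328) and in runs of 20 or more cytosines (0.381, adjusted p = 0.244). Without animal 2606 it was 0.452 (adjusted p = 0.0547) when the runs were chosen anew, and 0.524 (adjusted p = 0.00879) with the runs chosen on all 11 animals. Without the 4 higher animals it was 0.802 (adjusted p = 0.0375) with runs chosen anew and 0.486 (adjusted p = 0.0703) with the same runs. Adjusted p over all alternatives of this difference went from 0.000977 to 0.328. Both classes were chosen by level, and the room for a shift in points differs between them, so nothing particular to the unmethylated runs is read from this comparison.

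Both sides of a strand were raised at the outermost cytosine, the 5′ side more than the 3′ side. This was looked at after seeing the data, in the 750 cases where a strand of an unmethylated run held 3 or more listed cytosines. The rule averaged these same ratios, so the p-values below give stability across animals and support no trait of the runs. The 5′ most cytosine of the strand averaged 5.70% ± 1.40 (SD, n = 11) and the 3′ most 3.87% ± 1.01, with 3.66% and 3.44% at the cytosines next to them, with plus and minus strands pooled. The 3′ most cytosine was above its neighbour in 11 of 11 animals, a count without a test. The 5′ most was higher by 1.83 ± 0.479 percentage points (SD) in 11 of 11 animals, from 1.01 to 2.62 (p = 0.000977, and adjusted over 3 tests 0.000977, permutation test). Without the 4 higher animals the difference was 1.44 (p = 0.0156, the smallest that 7 animals allow in an exact permutation test). It was 2.29 points in runs of 100 bp or less, 1.86 in runs of over 100 and up to 500 bp and 1.17 in longer runs.

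The highly methylated runs showed the same direction. Their 5′ most cytosines averaged 88.2% and their 3′ most 82.3%, a difference of 5.89 ± 0.840 percentage points (SD, n = 11) in 11 of 11 animals. It was 5.87 without the 4 higher animals (p = 0.0156, exact permutation test, n = 7). The third of the 3 tests, the unmethylated minus the highly methylated difference, gave -4.06 ± 0.921 points (adjusted p = 0.000977, permutation test) and -4.43 without the 4 animals (p = 0.0156, exact permutation test, n = 7). A level near 0 leaves little room for a difference of the size seen in the highly methylated runs, so nothing is read from this comparison. A level that is higher at the 5′ side of a strand was therefore not particular to the unmethylated runs. Reads were not used here, and the cause was not tested.

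**Figure D4:**
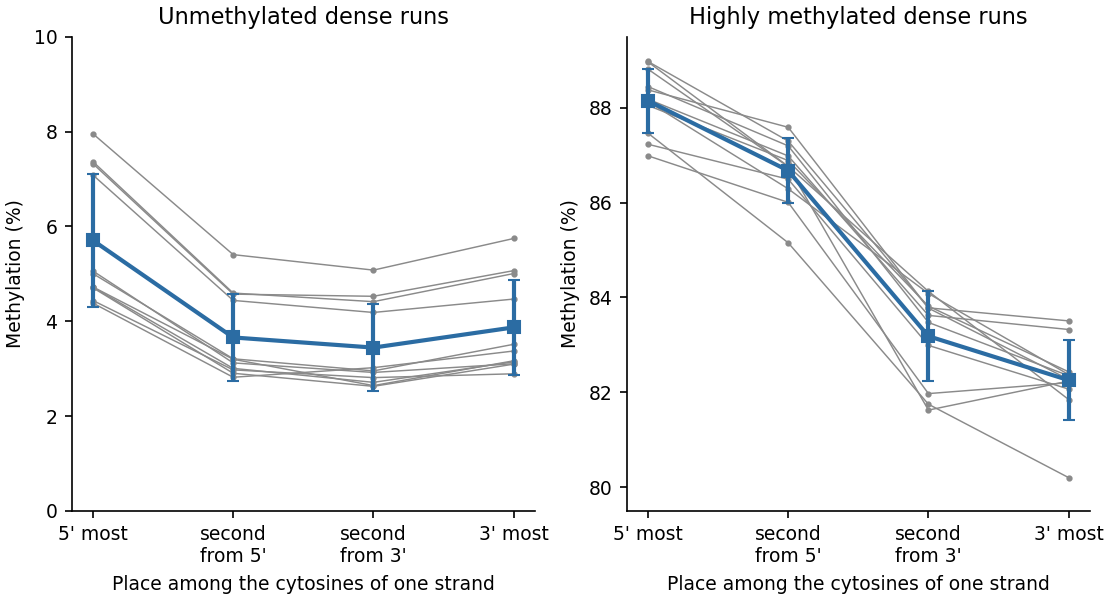
Methylation (vertical axis, %) at the outer 2 cytosines of each side of a strand, from the 5′ most to the 3′ most (horizontal axis), in unmethylated (left, 750 strands) and highly methylated (right, 278 strands) dense runs; thin lines are the 11 animals and the squares their mean with the SD. Both vertical axes span 10 percentage points, the right one not from 0, and the 5′ most cytosine is higher than the 3′ most in every animal in both.

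Levels within the unmethylated runs were also compared by the number of listed neighbours. The rule averaged these same ratios to choose the runs, so the comparison is a description. Cytosines of unmethylated runs had a median of 7 other listed cytosines within 50 bp, from 0 to 26. The 2907 cytosines above this median averaged 3.65% ± 0.996 (SD, n = 11) and the 3669 at or below it 3.99% ± 1.00. The crowded cytosines were lower in 11 of 11 animals, with a difference of -0.341 ± 0.106 percentage points (adjusted p = 0.00195, permutation test). The p-value gives stability across animals, and no trait of the runs is read from it. Without the 2 cytosines at each run end the difference was -0.333. The level did not fall steadily with crowding: it was 4.65% with 0 to 2 neighbours, 4.00% with 3 to 5, 3.74% with 6 to 8, 3.46% with 9 to 11 and 3.85% with 12 or more.

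This difference rested on some choices. In runs of 20 or more cytosines it was reversed, at 0.218 percentage points (adjusted p = 0.131). It was -0.0870 with the bound at 5% and -0.0930 with runs split at 500 bp, still past the threshold. It was larger with the bound at 20% (-0.577), with strands counted once (-0.556) and with ratios of exactly 0 and 1 left out (-0.606). Its size thus went with the bound that chose the runs, from -0.0870 at 5% through -0.341 at 10% to -0.577 at 20%. Without animal 2606 it was -0.188 (adjusted p = 0.0908) with runs chosen anew, which brings in the pair of chromosome 1 runs named above, and -0.338 (adjusted p = 0.00391) with the runs chosen on all 11 animals. Without the 4 higher animals it was -0.280 (adjusted p = 0.0234, permutation test) with runs chosen anew and -0.347 (adjusted p = 0.03125, permutation test) with the same runs. Adjusted p over all its alternatives went from 0.000977 to 0.131.

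The strands of the same CpG were compared in the runs, where the rule places both near 0. Both cytosines were listed at 557 CpGs of the unmethylated runs, with a plus-strand mean of 3.65% ± 1.05 (SD, n = 11) and a minus-strand mean of 3.74% ± 0.896. The difference of -0.0906 ± 0.294 percentage points was negative in 6 of 11 animals and did not pass the test (adjusted p = 0.383, permutation test). In runs of 20 or more cytosines it was -0.749 (adjusted p = 0.0156), and without the 4 higher animals -0.324 (adjusted p = 0.0234) with runs chosen anew and -0.191 (adjusted p = 0.112) with the same runs. It turned positive with the bound at 5% or at 20% (0.113 and 0.282), past the threshold with neither. The sign thus changed with the bound that chose the runs, and the rule averaged these same ratios. Nothing about the strands is read from this test. At a single CpG the median difference between strands, taken on means over animals and without sign, was 1.18 percentage points. It exceeded 10 points at 17 of the 557 CpGs (3.05%), against 166 of 607 (27.3%) in the highly methylated runs, where the median was 4.25 points. Since the rule chose runs with a mean below 10%, gaps of this size were nearly excluded in the unmethylated runs, and these counts are descriptions only.

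Listed cytosines close to an unmethylated dense run were themselves less methylated than those close to other dense runs. Cytosines outside any dense run, over 1000 and up to 5000 bp from the nearest end of a dense run, were not used in choosing the runs. Near unmethylated runs, 313 such cytosines beside 74 runs averaged 20.5% ± 0.799 (SD, n = 11). Near the other dense runs, 257 cytosines beside 57 runs averaged 51.8% ± 1.32. The difference of -31.3 ± 1.56 percentage points was present in 11 of 11 animals, from -32.8 to -28.2 (adjusted p = 0.00195, permutation test). Without the 4 higher animals it was -35.0 (adjusted p = 0.0234, permutation test) with runs chosen anew. With the runs chosen on all 11 animals it was -31.3 (adjusted p = 0.03125, permutation test), close to the main value. Counting each flanked run once gave -26.6. Most unmethylated runs had no such cytosine listed, since the 74 are 15.2% of the 486.

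The surroundings were a mixture of low and high cytosines. Of the 313 cytosines near unmethylated runs, 214 (68.4%) had a mean below 10% and 40 (12.8%) a mean above 70%. Of the 257 near other dense runs, 57 (22.2%) were below 10% and 116 (45.1%) above 70%. The levels depended on distance. Near unmethylated runs the level was 13.4% ± 0.994 (SD, n = 11) at 1 to 2 kb, 25.1% at 2 to 5 kb, 36.6% at 5 to 20 kb and 34.9% at 20 to 100 kb. Near highly methylated runs it was 74.9%, 56.8%, 43.8% and 47.0% at the same distances, and near partly methylated runs 36.2%, 31.5%, 29.4% and 35.3%. Near all other dense runs together it was 63.9%, 44.4%, 37.0% and 41.8%. The gap to the unmethylated runs thus was smallest at 5 to 20 kb and wider again at 20 to 100 kb.

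The size of this difference depended on the distance and on how runs were drawn. At over 1000 and up to 2000 bp it was -50.4 percentage points, and at over 5000 and up to 20000 bp it was -0.396 and missed the threshold (adjusted p = 0.119). It was -17.7 with the bound at 5%, -40.6 with the bound at 20% and -20.0 in runs of 20 or more cytosines, past the threshold with each. With runs split at 2000 bp it was -14.7, also past the threshold. No cytosine outside those runs lies within 2000 bp of them, so that split also moved the flank outwards. Under the main rule the levels at 2 to 5 kb were 25.1% near unmethylated and 44.4% near other dense runs. The split thus cannot be told apart from distance. Adjusted p over all alternatives of the flank difference went from 0.000977 to 0.119.

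**Figure D5:**
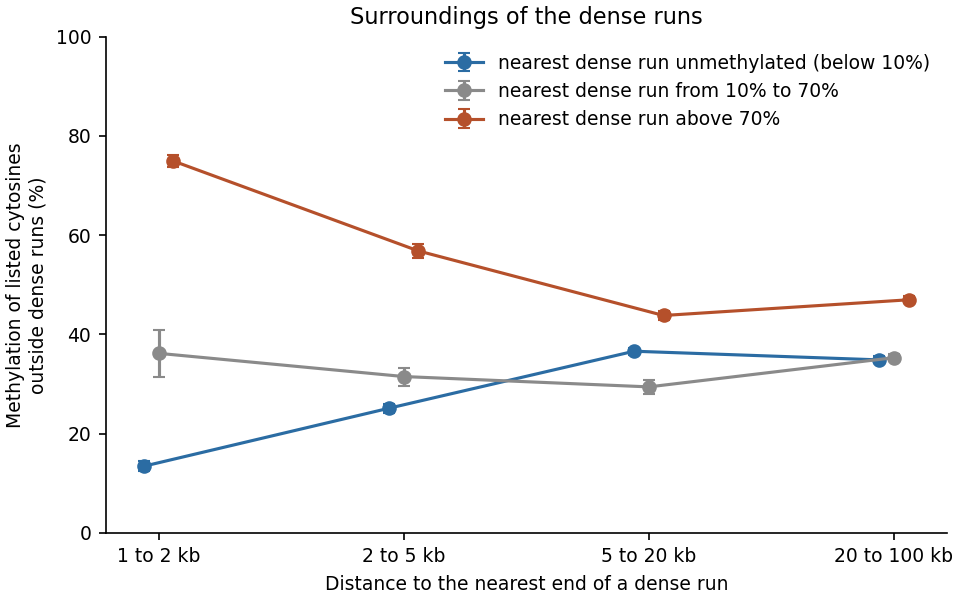
Methylation of listed cytosines outside dense runs (vertical axis, %) by distance to the nearest end of a dense run (horizontal axis, 4 steps), split by the class of that run; points are means over the 11 animals and bars the SD. Near unmethylated runs the level goes from 13.4% at 1 to 2 kb to 36.6% at 5 to 20 kb, and near highly methylated runs from 74.9% to 43.8%.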

How the data were processed

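RRBS libraries of 11 muscle biopsies were used. Per the methods, the authors trimmed reads, used RRBSMAP to align them to the Yan et al. assembly, retained CpGs covered by 10 or more reads and computed a methylation ratio, the methylated fraction of reads, with methratio. The deposited ratio, from 0 to 1 for 61399 cytosines and 11 animals without a missing value, was used without scaling and is printed in percent. No 2 columns were identical. Members and lists were chosen with earlier results of these data known. Runs, per-animal means and paired differences were computed with Python 3.11.15, numpy 2.4.6, pandas 2.3.3, scipy 1.17.1 and matplotlib 3.10.9. Differences were tested by a two-sided permutation test over animals (all 2048 sign changes), with Benjamini-Hochberg adjustment over 6 tests and a threshold of 0.05, and the scripts were tested on simulated data. Named regions are the 3 unmethylated runs with the most cytosines, the lowest mean and the widest range, 3 runs on each side of the bound, and the 3 highest cytosines. Chromosomes 10 and 11 stayed outside the rule. Alternatives changed the gap, run size, bound, end length, distances, window, strand counting, exact 0 and 1, chromosomes and animals. RefSeq genes, of another assembly, were not used.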

Additional observations from a re-analysis of the deposited data

How the results depend on the processing

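Higher run ends in the unmethylated dense runs kept their direction and passed the threshold under all 28 alternatives (0.286 to 1.13 percentage points), as did the 5′ against 3′ difference under all 18 of its alternatives (1.17 to 2.58). The flank difference did so under 24 of 25, the exception being -0.396 at over 5000 and up to 20000 bp, and the crowding difference under 24 of 26. Crowding was reversed to 0.218 in runs of 20 or more cytosines, and leaving out 1 animal gave -0.425 to -0.188. The value of -0.188, without animal 2606, comes with 4 runs that then meet the rule. The cause of the other changes was not tested. The rule averaged the ratios behind the ends, 5′ against 3′ and crowding differences. Their counts of alternatives thus describe stability and support no trait of the runs.

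The difference at the ends of highly methylated runs changed sign. It passed the threshold at 0.775 with runs split at 500 bp, 1.22 with chromosomes 10 and 11, 1.70 with 1 cytosine at each end and 0.332 without the 4 higher animals. It was negative at -0.241 with runs split at 2000 bp, -0.481 in runs of 20 or more, -0.0930 without exact 0 and 1, -1.96 with strands counted once (past the threshold in this direction) and -0.165 with 3 cytosines at each end. Leaving out 1 animal gave -0.0243 to 0.172, and with the same runs it was -0.0243 without animal 2606 and -0.00218 without the 4. The comparison of ends between classes was 2.83 with 1 end cytosine, 1.77 with chromosomes 10 and 11, 1.26 with runs split at 500 bp, 0.381 in runs of 20 or more, 0.121 with 3 end cytosines, -1.42 with strands counted once, 0.486 without the 4 animals and the same runs, and 0.452 to 0.752 with 1 animal left out.

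The strand difference was -0.749 in runs of 20 or more and -0.324 without the 4 animals (-0.191 with the same runs), and 0.113 and 0.282 with the bound at 5% and 20%. The number of runs was 44 with 20 or more cytosines and 404 to 542 under the other alternatives. The left-out share was 86.6% and 98.4% with the bound at 5% and 20%. Leaving out the 4 animals, keeping the same runs, choosing by span, counting flanked runs once, leaving out run ends or cytosines above 30%, and the 5′ and 3′ places were added after seeing the data. Counting strands once gives no strand difference, and without exact 0 and 1 the runs were not chosen anew. The tests compared values within each animal, and no pairing across groups applies to 1 group. The mean level was 7.16% without exact 0 and 1 and 4.99% with the bound at 20%. Coverage minimums above the stated one were not run, since read counts were not used, so differences of single ratios have unknown precision.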

Other observations

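Sequence outside the 18 chromosomes also held dense runs with a mean below 10%. On chromosome 10 they were 27 of 132 dense runs (20.5%) and on chromosome 11 they were 24 of 58 (41.4%). Chromosome X held 6 of 10 and unplaced sequence 75 of 156 (48.1%). With chromosomes 10 and 11 included, 54.9% of dense runs were unmethylated instead of 61.7%.

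Few dense runs of any class lay close to another. Among neighbouring dense runs of a chromosome, 12 pairs were up to 5 kb apart, and 3 of these were both unmethylated. Of 51 pairs 5 to 50 kb apart, 14 were both unmethylated, 14 joined an unmethylated and a highly methylated run, and 8 joined an unmethylated and a partly methylated one. Of 707 pairs further apart, 305 were both unmethylated (43.1%). Of all dense runs 61.7% were unmethylated, and nothing particular to them is read from these counts.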
